A study of Mus musculus with 9 samples.

Results

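Gene desert peaks are stretches of open chromatin that lie far from any protein-coding gene. In D2A1-d, a line of murine breast carcinoma cells, 8097 of 75936 open chromatin peaks (10.7%) had their centre outside every protein-coding gene of the mouse annotation and more than 50 kb from every annotated end of such a gene. Position alone chose them, and no measured value entered the choice. The assay was ATAC-seq: a transposase cuts accessible DNA and leaves adapters there, so that reads pile up where chromatin is open. The 9 libraries came from cells transduced with a non-targeting control hairpin (NTC, genotype labelled WT, n = 3), with the hairpin shMed1 #2 (n = 3) or with the hairpin shMed1 #4 (n = 3), both labelled as Med1 knockdown. All 9 were otherwise labelled untreated. The comparison asks what lowering Med1 does to open chromatin. Libraries of a group carry the label of biological replicates, but how the cultures were kept apart is not described, and p-values here reflect only how these samples vary.

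MED1 is a subunit of Mediator, the complex that carries signals from transcription factors on enhancers to RNA polymerase II, and it is known as the contact of Mediator with nuclear receptors. Gene deserts often flank genes of developmental regulators. They are known to hold enhancers that reach a promoter over long distances, promoters of long non-coding RNAs (lncRNAs), and microRNA genes. ATAC-seq shows that a site is open, and it does not show which gene, if any, the site acts on. Genes named here as flanking a desert are its nearest protein-coding neighbours and not tested targets.

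A hairpin lowers an RNA and need not move the chromatin of its gene, and Med1 RNA was not measured in these libraries. The peak at the end of Med1 held normalised counts of 2066, 2141 and 2134 in NTC, 2152, 2049 and 1869 with #2, and 2013, 1887 and 2014 with #4. It was not called with either hairpin (limma, adjusted p = 0.311 and 0.136), and it does not check the knockdown. A normalised count is the number of reads in a peak of 501 bases after the authors' scaling of the libraries. Summed over all peaks, the libraries held, in units of 1e6, 41.2 to 41.5 in NTC, 43.4 to 44.2 with #2 and 43.1 to 43.6 with #4. Of 8 epithelial marker genes, Krt18 and Krt14 had a peak within 1 kb of a gene end, at NTC means of up to 209 and 126, while Epcam, Cdh1, Krt8, Krt19, Krt5 and Esrp1 had none. The mesenchymal genes Vim and Fn1 had gene-end peaks at up to 4576 and 3358, and Zeb1 one at 242, while Cdh2 had none. Of the blood genes, Csf1r had one, at 109, and Ptprc and Cd3e had none, and of the endothelial genes Cdh5 had 2, at up to 117, and Pecam1, Kdr and Tie1 had none.

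The annotated deserts are not free of genes of every kind. Of the 8097 peaks, 1834 lay inside a transcribed non-coding gene and 432 within 1 kb of an end of such a gene. A total of 186 annotated promoters, of 164 lncRNA genes, overlapped 161 of the peaks. The promoters of 6 of these genes are shown because their desert peaks span the range of levels and changes described below. Each sequence runs 5′ to 3′ on the strand of its gene, from 250 bases before to 50 bases after the annotated start (RefSeq, GRCm38.p6). Capitals mark letters that match any of 11 motifs, searched on both strands, and no marked matches of different motifs overlapped. The promoter of Gm32287 lies at chr2:167777365-167777664 on the minus strand, that of Gm33741 at chr6:100509980-100510279 on the minus strand, and that of Mirt1 at chr19:53464747-53465046 on the minus strand. The promoter of Gm8883 lies at chr1:71887862-71888161 on the plus strand, that of Gm26579 at chr10:116674341-116674640 on the plus strand, and that of Wincr1 at chr4:89050057-89050356 on the plus strand.
Gm32287: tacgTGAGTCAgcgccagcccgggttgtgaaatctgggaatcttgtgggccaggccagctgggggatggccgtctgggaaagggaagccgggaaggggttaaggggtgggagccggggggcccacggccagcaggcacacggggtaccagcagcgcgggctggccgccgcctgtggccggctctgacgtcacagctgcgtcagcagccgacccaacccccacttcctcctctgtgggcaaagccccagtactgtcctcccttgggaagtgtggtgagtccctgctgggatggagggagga
Gm33741: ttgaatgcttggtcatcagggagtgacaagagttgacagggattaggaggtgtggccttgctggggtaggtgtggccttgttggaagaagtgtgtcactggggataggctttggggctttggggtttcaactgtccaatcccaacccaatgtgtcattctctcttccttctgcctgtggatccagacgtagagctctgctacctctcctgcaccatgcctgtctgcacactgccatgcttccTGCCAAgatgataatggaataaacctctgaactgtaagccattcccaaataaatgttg
Mirt1: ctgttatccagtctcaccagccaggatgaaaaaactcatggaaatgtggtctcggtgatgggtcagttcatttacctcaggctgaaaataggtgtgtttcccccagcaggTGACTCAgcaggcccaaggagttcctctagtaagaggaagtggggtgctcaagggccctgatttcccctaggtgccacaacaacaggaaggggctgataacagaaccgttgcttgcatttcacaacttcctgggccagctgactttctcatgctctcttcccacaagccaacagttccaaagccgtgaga
Gm8883: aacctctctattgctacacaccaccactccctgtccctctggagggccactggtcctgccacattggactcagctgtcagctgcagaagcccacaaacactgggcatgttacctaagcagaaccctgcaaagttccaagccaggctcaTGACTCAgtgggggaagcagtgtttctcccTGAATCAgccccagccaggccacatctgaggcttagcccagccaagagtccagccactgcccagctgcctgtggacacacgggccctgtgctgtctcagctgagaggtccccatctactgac
Gm26579: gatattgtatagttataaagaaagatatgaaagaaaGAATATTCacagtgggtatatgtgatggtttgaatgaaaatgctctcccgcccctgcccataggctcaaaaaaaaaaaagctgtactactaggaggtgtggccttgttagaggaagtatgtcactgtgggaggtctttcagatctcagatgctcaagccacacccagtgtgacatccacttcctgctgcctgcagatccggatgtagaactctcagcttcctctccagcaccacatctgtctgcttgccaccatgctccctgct
Wincr1: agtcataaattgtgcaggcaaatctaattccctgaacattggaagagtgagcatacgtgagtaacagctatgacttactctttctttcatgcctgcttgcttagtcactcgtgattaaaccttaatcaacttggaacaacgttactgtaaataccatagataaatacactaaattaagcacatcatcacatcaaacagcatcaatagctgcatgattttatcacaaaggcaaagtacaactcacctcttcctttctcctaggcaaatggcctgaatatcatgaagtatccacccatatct
The capitals in Gm32287, Mirt1 and Gm8883 are matches to TGANTCA, the motif of AP-1 factors (FOS and JUN), with 1 match in each of the first pair and 2 in Gm8883. The capitals in Gm33741 are an NFI motif (TTGGCA on the other strand), and those in Gm26579 are a heat shock motif (GAANNTTC). Wincr1 held none of the 11. Gm32287 had a GC content of 67.3% with 16 CpG dinucleotides, and the other 5 had 37.7% to 58.3% with 1 to 3.

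AP-1 motifs were common in these promoters. TGANTCA stood in 51 of the 186 promoters over desert peaks (27.4%), in 11.2% of 1438 lncRNA promoters over peaks outside deserts, in 9.02% of all 11402 other lncRNA promoters and in 7.81% of all 32851 promoters of the table. The RUNX motif TGTGGTT stood in 12.9% of the desert promoters, against 4.66%, 6.18% and 5.27% in the same 3 sets. The remaining motifs were the CTCF core AGNNGGCGC (5.38%, against 7.23% of all promoters), TEAD ACATTCC (4.3% against 3.85%), ETS CCGGAAGT (1.08% against 3.89%), ATF4 TGATGCAA (0.538% against 0.895%), NF-kappaB GGANTTNCC (1.61% against 3.95%), heat shock GAANNTTC (10.8% against 7.86%), NFI TTGGCA (17.7% against 14.1%), the glucocorticoid-type ACANNNTGT (5.91% against 6.85%) and the E-box CACGTG (6.45% against 7.15%). In that order, they stood in 11.6%, 3.82%, 5.49%, 0.626%, 4.45%, 5.77%, 12.2%, 4.24% and 9.6% of lncRNA promoters over peaks outside deserts. Median GC content was 50% in the desert promoters, 60% in the lncRNA promoters over other peaks and 52.7% in all, so the sets also differ in base composition. A match is a description of letters and not a bound site. Peaks away from annotated promoters were not searched.

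The desert peaks were of modest strength. Their NTC means ran from 5.07 to 6044 with a median of 163, against a median over the 9 libraries of 206 for all peaks and 1037 for the peaks within 1 kb of a protein-coding gene end. The median distance to the nearest protein-coding gene end was 113 kb (quartiles 72.9 and 203 kb), and the largest was 2155 kb. The peaks lay in 1543 deserts, each the gap between neighbouring protein-coding genes. Of these deserts, 417 held 1 desert peak and 256 held 10 or more.

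Desert peaks took up a larger part of the open chromatin signal with hairpin #2. They held 7.4%, 7.34% and 7.24% of the summed signal in the NTC libraries, 7.93%, 7.87% and 7.87% with #2, and 7.38%, 7.54% and 7.61% with #4. All 3 libraries of #2 stood above all 3 of NTC, while replicate 1 of #4 fell within the NTC range. The group means were 7.32% ± 0.0816, 7.89% ± 0.0342 and 7.51% ± 0.118 (SD, n = 3). The median weak desert peak stood at 77 to 78.4 in NTC, 72 to 72.6 with #2 and 72.7 to 75.7 with #4, so every hairpin library was lower. The median strong desert peak stood at 794 to 821 in NTC, 933 to 964 with #2 and 850 to 874 with #4, so every hairpin library was higher. Weak, middle and strong are classes of equal size over all tested peaks, cut by the mean over the 9 libraries at 117 and 432.

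**Figure D1:**
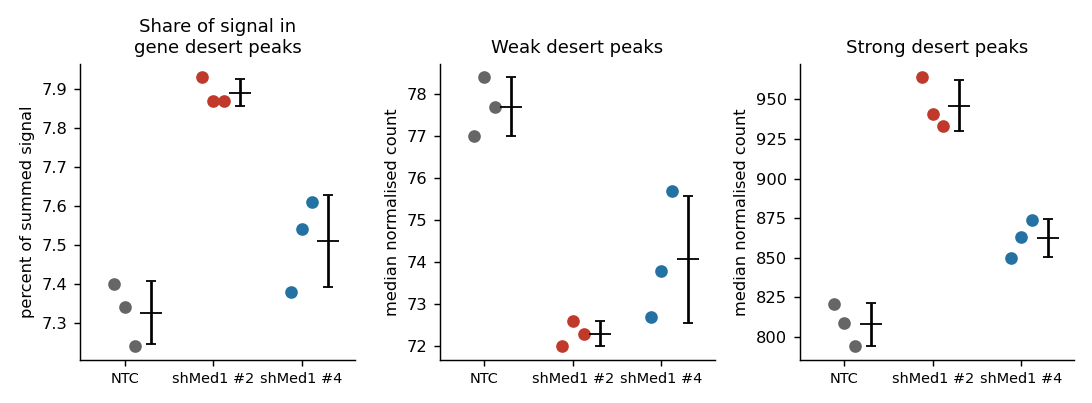
Each point is a library of NTC (grey), shMed1 #2 (red) or shMed1 #4 (blue), and bars are the group mean with its SD (n = 3). The left panel gives the percent of all summed signal that lay in desert peaks, and the other panels give the median normalised count of weak and of strong desert peaks, on axes that do not start at 0. The libraries of #2 sit at 7.87% to 7.93%, above those of NTC at 7.24% to 7.4%.

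More desert peaks opened than closed with either hairpin under the authors' scaling. With #2, 2268 of 8096 tested desert peaks were called higher (28%) and 1209 lower (14.9%), beside 23.6% and 19.5% of all tested peaks (limma on log2 values, Benjamini-Hochberg adjusted p under 0.05 over all peaks). With #4, 1398 were called higher (17.3%) and 847 lower (10.5%), beside 17.3% and 12.1% of all peaks. In the mean of both hairpins, 1935 were called higher (23.9%) and 1078 lower (13.3%), beside 22.1% and 17.7%. A total of 12.3% of the desert peaks were called higher with each hairpin and 4.37% lower with each, beside 12.3% and 7.78% of all peaks. The shares called higher thus lay near those of all peaks, and the shares called lower lay under them. The changes were small, with a median size of 0.46 on the log2 scale among desert peaks called with #2 and 0.38 with #4. The hairpins share the NTC libraries, so their calls are not independent of each other.

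The balance of the directions depends on the scaling. With every library scaled to the same total, 1742 desert peaks were called higher and 1796 lower with #2, 991 and 1328 with #4, and 1405 and 1730 in the mean of both hairpins. In that mean, 17.4% of desert peaks were called higher and 21.4% lower. The shares were 18.2% and 22.3% inside gene bodies, 16.3% and 26.7% at other intergenic peaks, and 7.99% and 49% at gene ends. The share of higher calls went from 65.2% to 49.2% with #2 and from 62.3% to 42.7% with #4. In the mean it went from 64.2% to 44.8%, and the median log2 change of all peaks from -0.008 to -0.085, so that the desert median of -0.05 stayed above it. Calls in both directions were fewer when NTC replicate 2 or 3 was left out. Without NTC replicate 2, lower calls covered 8.15% of the desert peaks in the mean and 6.05% with #4. Without NTC replicate 3 they covered 8.13% and 6.83%. The share lower with each hairpin was then 2.17% and 2.29%. Higher calls of desert peaks in the mean went from 1935 to 1597 and 1537 in these fits. Shares over all peaks in these fits are not given here.

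Within the deserts, the calls differed with the strength of the peak. Among 2003 strong desert peaks, 61% were called higher with #2 and 5.29% lower, and 40.6% were called higher with #4 and 6.69% lower. Among 3097 weak ones, 8.43% were called higher with #2 and 18.3% lower, with 5.78% and 8.65% for #4. The 2996 of the middle class lay between, at 26.2% higher and 17.9% lower with #2. Strong peaks inside gene bodies were called higher in 55.8% and lower in 10.3% with #2, and other strong intergenic peaks in 54.6% and 11%, which are values like those of the deserts. Strong peaks at gene ends went the other way, with 13.4% called higher and 40% lower with #2. With equal totals, strong desert peaks were still called higher more often than lower, in 41.7% against 11.6% for the mean of both hairpins. Weak desert peaks had 6.49% higher and 15.1% lower calls in that mean, but 10.2% and 9.07% after cyclic loess scaling, so the direction for weak peaks depends on the scaling. No test was made between classes of peaks, since peaks are not replicates of a condition.

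**Figure D2:**
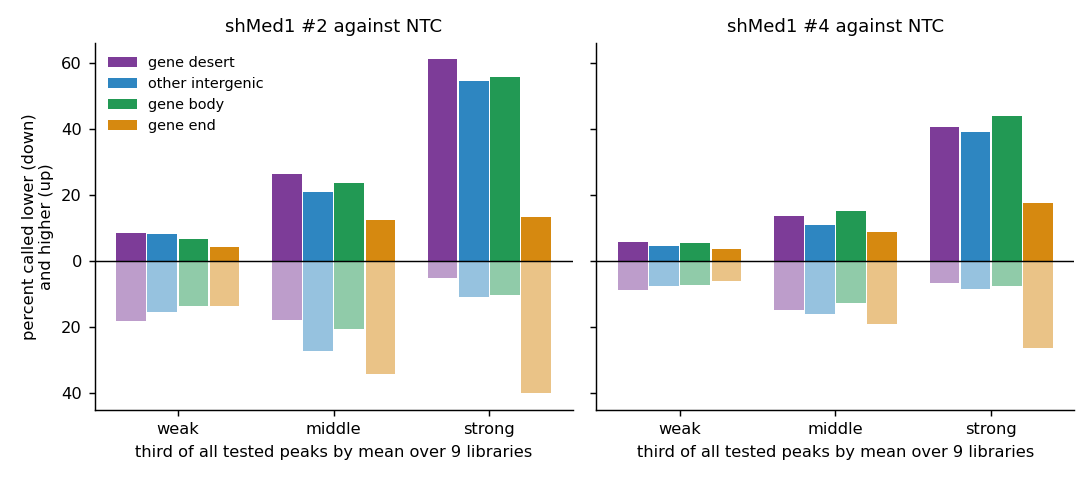
Bars above 0 give the percent of tested peaks called higher and paler bars below 0 the percent called lower, for shMed1 #2 (left) and shMed1 #4 (right) against NTC. Peaks are split into 3 classes of equal size by their mean over the 9 libraries, and colours are the position classes. Strong desert peaks reach 61% higher with #2 and 40.6% with #4, beside 13.4% and 17.6% of strong peaks at gene ends.

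Distance within the deserts changed these shares less than strength, up to the farthest peaks. In the mean of both hairpins, 25.4% of 3543 desert peaks at 50 to 100 kb were called higher and 13.4% lower. At 100 to 250 kb, 756 of 3080 peaks were called higher (24.5%) and 384 lower. The shares were 21.2% and 14.8% of 1071 at 250 to 500 kb, and 13.2% and 14.9% of 402 beyond 500 kb. The median level was 166 in the nearest bin and 132 in the farthest. Within the strong class the shares called higher were 57.6%, 58.2%, 52.5% and 32.1% in order of distance, the last over 78 peaks. Just inside the 50 kb rule, 571 peaks at 50 to 55 kb had a median NTC mean of 172, with 30.8% called higher and 12.1% lower. Just outside it, 627 peaks at 45 to 50 kb had a median NTC mean of 186, with 25.2% called higher and 14.5% lower. Desert peaks within 1 kb of an end of a non-coding gene were called higher in 31.2% and lower in 15%, beside 23.5% and 13.2% of those farther away, at median levels of 251 and 159. By chromosome, the share called higher in the mean ran from 19.7% (chromosome 3) to 28.2% (chromosome 5).

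The strongest desert peaks opened with both hairpins. The highest lay at chr2:167777492-167777993 (mm10, coordinates as deposited), between Cebpb, a leucine zipper transcription factor, and Ptpn1, a tyrosine phosphatase, and it overlaps the Gm32287 promoter printed above. It held 6202, 6157 and 5774 in NTC, 7312, 7867 and 8052 with #2, and 7981, 7868 and 7291 with #4. All hairpin libraries stood above all NTC libraries, by 0.36 ± 0.04 with #2 and 0.35 ± 0.04 with #4 (log2 fold change ± SE, limma, adjusted p = 2.64e-11 and 1.26e-10). A peak at chr2:148522016-148522517 between Cd93 and Nxt1 held 5652, 5320 and 5118 in NTC, 7949, 8042 and 8169 with #2, and 6900, 6833 and 6667 with #4. It rose with each hairpin, by 0.59 ± 0.03 and 0.34 ± 0.03, and less with #4 than with #2 (difference -0.24 ± 0.03, adjusted p = 3.32e-07). The next by NTC mean lay between Rai14 and C1qtnf3 (5252, then 7501 with #2 and 7285 with #4), between Irf2bp2 and Tomm20 (4765, then 6442 and 6749), and between Trib1 and 4933412E24Rik (4757, then 6482 and 6780). All 3 rose when both hairpins were averaged, by 0.49 ± 0.03, 0.47 ± 0.04 and 0.48 ± 0.04, with no overlap between hairpin and NTC libraries.

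The 8 largest rises in the mean of both hairpins, among peaks with a mean of at least 50 and no overlap between hairpin and NTC libraries, were at peaks of low level, with the Ccnd2 peak described below the strongest at 179 in NTC. The peak at chr4:87374063-87374564, between Slc24a2 and Mllt3, a gene of a chromatin reader, went from 39.2 ± 4.21 in NTC to 83.4 ± 13.9 with #2 and 99.9 ± 34.3 with #4, a rise of 1.17 ± 0.19 (adjusted p = 1.64e-06). A peak at chr10:61028484-61028985 between Unc5b, a netrin receptor gene, and Pcbd1 held 68, 84.8 and 57.5 in NTC, 187, 168 and 190 with #2, and 126, 111 and 109 with #4. All hairpin libraries were above NTC, and the rise was 1.05 ± 0.14 (adjusted p = 1.44e-08). Peaks beside Esrrb and Vash1, Prok2 and Rybp, Fbxl7 and Ank, Sema6a and Eno1b, and Reg3g and Gm20594 rose by 0.95 to 1.07, from NTC means of 34 to 65.5. Replicate 1 of #4 stood above the other #4 libraries at these peaks, for example 154 at the Reg3g peak where the others held 92.6 and 61.2.

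The largest falls by the same rule were also at peaks of modest level. A pair of neighbouring peaks between Dach1, a developmental transcriptional repressor, and Mzt1 fell together. At chr14:98699927-98700428 the values were 278, 341 and 284 in NTC, 197, 193 and 125 with #2, and 94.2, 144 and 138 with #4, a fall of 1.05 on the log2 scale (SE 0.13, adjusted p = 2.14e-09). At chr14:98708185-98708686 the values were 82.4, 76.5 and 84.8 in NTC, 60.6, 44.9 and 41.1 with #2, and 20.5, 37.5 and 24.5 with #4. Both peaks were lower with #4 than with #2 by limma. The difference was -0.45 ± 0.15 at the first (adjusted p = 0.0222) and -0.83 ± 0.26 at the second (adjusted p = 0.0145). Peaks between Vwc2l and Bard1, Tusc1 and Caap1, Rgmb and Gm51425, Fam170a and Pudp, and 2 peaks between Wac and Fzd8, a Wnt receptor gene, had mean log2 changes of -1.12 to -1, all called, from NTC means of 84.2 to 172. At none of these 8 did a hairpin library reach the lowest NTC library, which the rule that named them required.

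Peaks in deserts beside transcription factor genes included both rising and falling ones. A list of 145 such genes had 99 that flank a desert peak, with 1104 peaks, of which 307 were called higher and 113 lower in the mean of both hairpins (27.8% and 10.2%, median change 0.069, beside a median of -0.008 over all peaks). The shares were 23.9% and 13.3% of all desert peaks and 22.1% and 17.7% of all peaks, and the difference was not tested. Between Irf8, an interferon regulatory factor gene, and Foxf1, a mesenchymal forkhead gene, the peak at chr8:120962704-120963205 held 3477, 3212 and 3223 in NTC, 4480, 4683 and 5057 with #2, and 5058, 4952 and 4765 with #4. It rose by 0.55 ± 0.04 (adjusted p = 5.05e-17), and the hairpin libraries all lay above NTC. Beside Sox9, a regulator of progenitor and cartilage cells, 2 peaks rose by 0.66 ± 0.05 and 0.52 ± 0.04, from 1116 ± 24.9 and 2607 ± 131 in NTC to 1834 ± 125 and 3903 ± 173 with #2. Beside Osr1, a gene of kidney and limb mesenchyme, a peak went from 1254 ± 107 to 2000 ± 66.2 with #2 and 2035 ± 128 with #4.

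Some peaks in such deserts closed. The peak at chr4:81915021-81915522 between Mpdz and Nfib, a nuclear factor I gene, held 418, 506 and 565 in NTC, 373, 326 and 285 with #2, and 333, 327 and 351 with #4. Its hairpin libraries all lay below NTC, and it fell by 0.57 on the log2 scale (SE 0.09, adjusted p = 4.87e-07). A peak beside Six2, a nephron progenitor gene, fell by 0.75 (SE 0.14), from 153 ± 6.76 to 79.5 ± 10.2 with #2 and 104 ± 15.6 with #4. A peak between Zeb1, a driver of epithelial to mesenchymal transition, and Arhgap12 fell by 0.65 (SE 0.12), from 209 ± 11.4 to 144 ± 19.9 and 124 ± 18.3. Between Sall3 and Galr1, a peak went from 136 ± 12.1 in NTC to 55.1 ± 8.9 with #2 and 116 ± 10.7 with #4. It fell by 1.3 with #2 (SE 0.17) but was not called with #4 (-0.23 ± 0.17, limma, adjusted p = 0.316).

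Deserts beside secreted, signalling and adhesion genes held calls in both directions. Of 124 listed genes, 69 flanked 598 desert peaks, of which 134 were called higher and 100 lower in the mean (22.4% and 16.7%, median change 0.01), shares near the 22.1% and 17.7% of all peaks. With #4, 76 were called higher and 85 lower, with a median change of -0.053. The peak at chr8:34225022-34225523 between Saraf and Dusp4, a MAP kinase phosphatase gene, held 2981, 2761 and 2543 in NTC, 4188, 4387 and 4389 with #2, and 3968, 3974 and 4080 with #4. It rose by 0.59 ± 0.04 (adjusted p = 2.05e-17), with all hairpin libraries above NTC. Peaks beside Ccn1, a matricellular growth factor gene, and Errfi1, an inhibitor of EGF receptor signalling, rose by 0.50 ± 0.04 and 0.41 ± 0.03 in the mean.

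The peak at chr2:133467347-133467848 between Fermt1, an integrin activator gene, and Bmp2, a bone morphogenetic protein gene, closed. It held 446, 451 and 445 in NTC, 286, 291 and 292 with #2, and 295, 287 and 342 with #4, a fall of 0.58 on the log2 scale (SE 0.08, adjusted p = 8.09e-08). The groups did not overlap. Beside Fgf20, a fibroblast growth factor gene, a peak fell by 0.65 (SE 0.1). Between Wnt7b, a Wnt ligand gene, and Ppara, a peak went from 1554 ± 48.8 in NTC to 1164 ± 121 with #2 and 1389 ± 33.9 with #4, a fall of 0.29 (SE 0.05). Between Angpt1 and Rspo2, genes of an angiopoietin and of a Wnt pathway enhancer, a peak fell by 0.59 (SE 0.11).

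**Figure D3:**
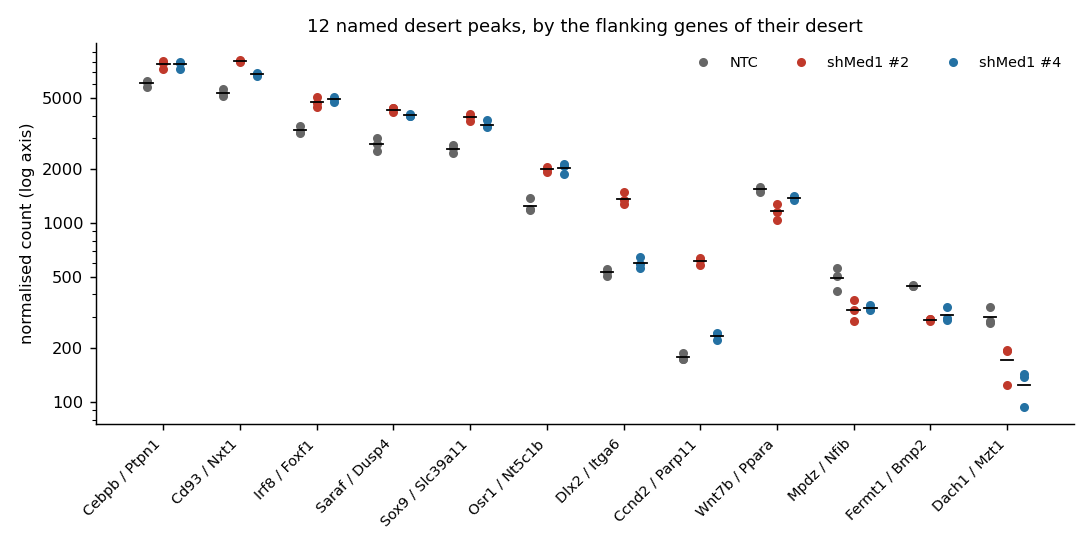
Points are the normalised counts of single libraries on a log axis, and short lines are group means, for 12 desert peaks named in the text (NTC grey, shMed1 #2 red, shMed1 #4 blue). The first 8 peaks have higher means with the hairpins and the last 4 lower means. With #2, the peaks beside Dlx2 and Ccnd2 stand far above both other groups, at 1373 and 614 beside NTC means of 531 and 179.

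The hairpins did not act alike at every desert. Between #4 and #2 directly, 674 desert peaks were higher with #4 (8.33%) and 1564 lower (19.3%), beside 8.48% and 13% of all peaks. In the strong class, 33.9% of desert peaks were lower with #4, beside 28.6% of other intergenic, 24.2% of gene-body and 3.01% of gene-end peaks. A peak at chr6:127375630-127376131 between Ccnd2, the cyclin D2 gene, and Parp11 held 189, 174 and 174 in NTC, 620, 585 and 636 with #2, and 240, 223 and 245 with #4. It rose by 1.77 ± 0.1 with #2 and by 0.40 ± 0.1 with #4 (adjusted p = 1.29e-19 and 0.0017), and the hairpins differed by -1.38 ± 0.1 (adjusted p = 5.85e-15). A peak at chr2:71640358-71640859 between Dlx2, a homeobox gene, and Itga6, an integrin gene, held 552, 535 and 506 in NTC, 1347, 1277 and 1495 with #2, and 560, 646 and 591 with #4. With #2 it rose by 1.37 ± 0.07, while with #4 it was not called (0.17 ± 0.07, adjusted p = 0.0682), and the difference between the hairpins was -1.19 ± 0.07 (adjusted p = 1.84e-17). With #2, peaks beside Adgrb1 and Hes1 also rose, by 1.37 ± 0.1 and 1.35 ± 0.18.

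Other peaks moved mainly with #4. A peak at chr3:38232471-38232972 between Gm5148 and Ankrd50 held 131, 142 and 123 in NTC, 104, 127 and 108 with #2, and 241, 320 and 314 with #4. It rose by 1.13 ± 0.13 with #4 (adjusted p = 3.66e-09), was not called with #2 (-0.23 ± 0.13, adjusted p = 0.171), and differed between the hairpins by 1.35 ± 0.13 (adjusted p = 5.21e-11). A peak between Dysf and Cyp26b1, a retinoic acid hydroxylase gene, rose by 1.08 ± 0.19 with #4 and differed by 1.32 ± 0.19. A peak between Tom1l1 and Kif2b fell with #4 by 1.35 on the log2 scale (SE 0.18), from 132 ± 20.2 to 50.7 ± 2.73, while with #2 it stood at 99.3 ± 12.1. Of the 8096 tested desert peaks, 63 were called higher with #2 and lower with #4, and 33 the other way. The share of such opposite calls over all peaks is not given here, so these counts have no background to be read against.

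Most deserts rich in peaks had more higher than lower calls, as the desert peaks had in all. Of the 256 deserts with 10 or more desert peaks, 182 had more peaks called higher than lower in the mean of both hairpins, 53 had more called lower and 21 were even. In 61 there were higher calls and no lower one, and in 17 lower calls and no higher one. Summed over its desert peaks, the signal of all 6 hairpin libraries lay above all 3 NTC libraries in 119 of the 256 deserts, lay below in 7, and overlapped in 130. As a share of the library's total signal, these counts were 69 above and 19 below.

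**Figure D4:**
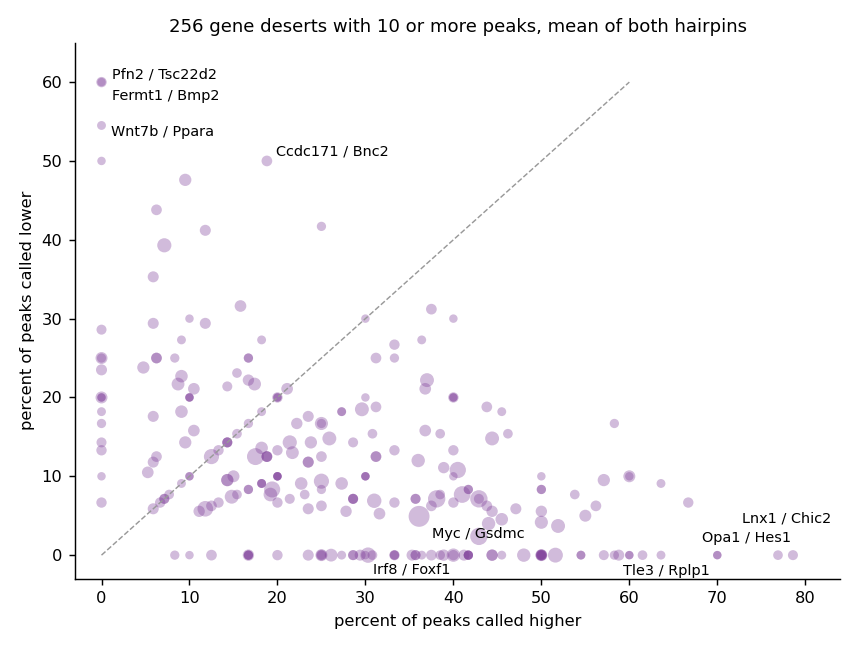
Each point is 1 of 256 gene deserts with 10 or more desert peaks, with its area in proportion to the number of peaks. The horizontal axis gives the percent of its peaks called higher and the vertical axis the percent called lower in the mean of both hairpins, and the dashed line marks equal shares. In 182 deserts the share called higher is the larger, and labels give the flanking genes of a few.

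The desert with the most peaks stretches 1786 kb from Myc, the gene of the growth regulating transcription factor, to Gsdmc on chromosome 15, and it holds Pvt1, a lncRNA gene beside Myc. It had 61 desert peaks, of which 22 were called higher and 3 lower in the mean of both hairpins. With #2 there were 25 higher and 1 lower, and with #4 there were 16 and 2. Their summed signal was 38989, 37616 and 37018 in NTC, 44475, 45775 and 47516 with #2, and 42611, 44651 and 43290 with #4. Every hairpin library was higher than every NTC library, also as a share of the library total. Inside Pvt1, 10 of 23 peaks were called higher and none lower, and all 8 strong ones there were called higher. From Pvt1 out to 750 kb from Myc, 9 of 22 were called higher and 2 lower. From 750 kb on, 3 of 16 were called higher and 1 lower, and 4 of those peaks were in the strong class, against 8 inside Pvt1 and 10 in the middle stretch. Without NTC replicate 2, or without NTC replicate 3, no peak of this desert was called lower in the mean.

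The strongest peak of the Myc desert lay 338 kb from the end of Myc, at chr15:62328325-62328826, with means of 4548 in NTC, 5583 with #2 and 5595 with #4. It rose by 0.30 in the mean (adjusted p = 1.15e-10), but by 0.06 with an adjusted p of 0.0794 after quantile scaling. A peak inside Pvt1 at chr15:62134716-62135217 went from 456 to 693 with #2 and 684 with #4, a rise of 0.59 (adjusted p = 2.15e-09). A weak peak 427 kb from Myc fell, from 116 to 90.4 and 79.8 (-0.44, adjusted p = 0.0123), and the call was lost without NTC replicate 2 or 3 (adjusted p = 0.067 and 0.0772).

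**Figure D5:**
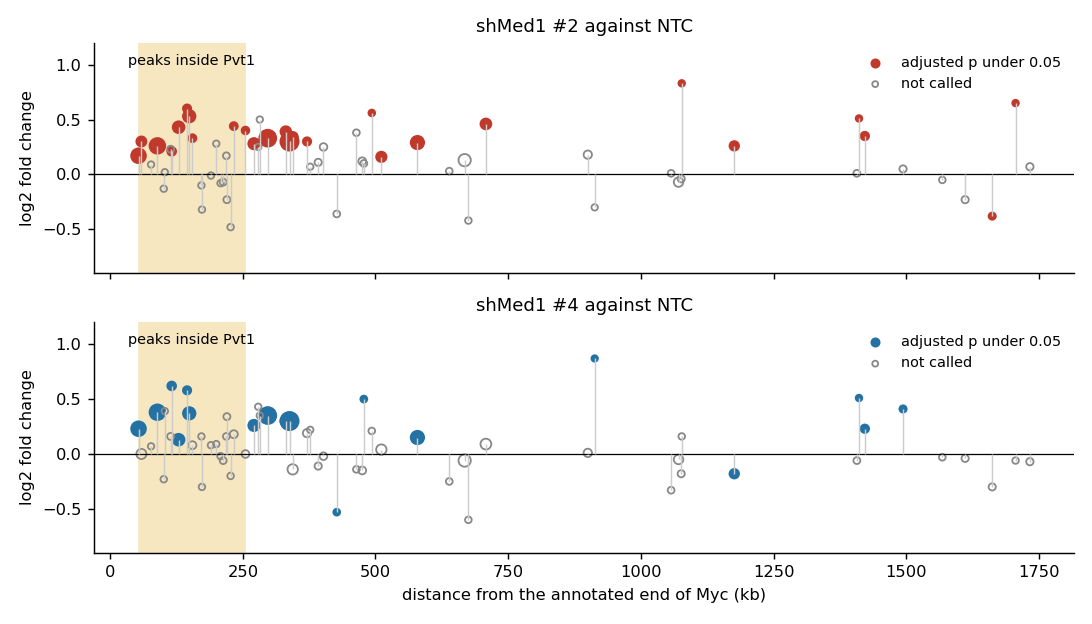
Points are the 61 desert peaks between Myc and Gsdmc, by their distance from the annotated end of Myc (horizontal, kb) and their log2 fold change against NTC (vertical), for shMed1 #2 (top) and shMed1 #4 (bottom). Point area grows with the NTC mean, filled points have an adjusted p under 0.05, and the shaded span holds the 23 peaks inside Pvt1. Filled points above 0 are 25 with #2 and 16 with #4, and most of the strong peaks lie within 750 kb of Myc.

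The other deserts rich in peaks mostly followed the same direction. Between Klf14 and Mkln1, a span that holds the p53-induced lncRNA gene Lncpint and the genes of miR-29a and miR-29b-1, 16 of 42 peaks were called higher and 3 lower. Its sums were 32967, 31646 and 30958 in NTC, 37313, 38475 and 41884 with #2, and 38793, 39504 and 37757 with #4. Between Klf4, a zinc finger factor gene, and Actl7b, 18 of 42 were called higher and 1 lower, and between Bcl2l11, which encodes the cell death protein BIM, and Spdye4c, 18 of 42 and 3. The promoter of Morrbid, a lncRNA known to repress Bcl2l11 in myeloid cells, lies in this last desert. Its peak stood at 3001 ± 42.7 in NTC, 3413 ± 141 with #2 and 3167 ± 241 with #4, with a mean change of 0.13 ± 0.04 (adjusted p = 0.00749) that was not called after equal totals, quantile or cyclic loess scaling (0.05, -0.02 and 0.00).

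Between Gadd45g and Diras2, 16 of 39 peaks were called higher and 3 lower, between Gm6569 and Adgrb1 15 of 37 and 4, and between Irf8 and Foxf1 10 of 33 and none. The sums of the Irf8 desert were 19425, 18573 and 18623 in NTC, 22947, 23732 and 25053 with #2, and 23542, 23955 and 23421 with #4, so all hairpin libraries were higher. Smaller margins were found between Rasgrp1 and Thbs1 (7 of 40 higher, 5 lower), Zeb2 and Acvr2a (7 of 36 and 3), and Nmbr and Cited2 (4 of 34 and 2). With equal totals these 3 turned to more lower than higher calls (4 and 13, 5 and 6, 3 and 5), while the other 7 of the 10 largest deserts kept more higher calls. Without shMed1 #2 replicate 1, the Rasgrp1 desert had 10 lower calls, and without NTC replicate 2 or 3 it had 4 higher and 3 lower. The small counts of lower calls in the other large deserts moved by a few peaks with single libraries left out. Without NTC replicate 2 or 3 they went from 3 to 0 in the Myc desert and from 4 to 2 in the Gm6569 desert. In the Bcl2l11 desert they went from 3 to 1 without NTC replicate 3. They went from 3 to 5 in the Klf14 desert without NTC replicate 1 and in the Zeb2 desert without shMed1 #2 replicate 1.

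The deserts with the largest share of rising peaks were between Lnx1 and Chic2 (11 of 14 higher), Opa1 and Hes1, a Notch target gene (10 of 13), Zfp438 and Zeb1 (7 of 10), Tle3, a corepressor gene, and Rplp1 (7 of 10), and Ywhaz and Zfp706 (10 of 15). None had a lower call except the last, with 1. The Lnx1 desert summed to 11276, 10804 and 11007 in NTC, 14623, 14289 and 14870 with #2, and 12671, 12473 and 12560 with #4, in 3 groups without overlap. With equal totals these 5 deserts had 9, 9, 6, 6 and 9 higher calls.

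The deserts with the largest share of falling peaks were between Fermt1 and Bmp2 (6 of 10 lower), Pfn2 and Tsc22d2 (9 of 15), Wnt7b and Ppara (6 of 11), Ccdc171 and Bnc2, a zinc finger gene (8 of 16), and Otol1 and Sis (5 of 10). The first 3 and the last had no higher call, and the Bnc2 desert had 3. The Bmp2 desert summed to 2682, 2687 and 2636 in NTC, 2055, 2168 and 2091 with #2, and 2223, 2316 and 2276 with #4, again without overlap. The Pfn2 desert summed to 6794, 6990 and 7001 in NTC, 6449, 6000 and 5818 with #2, and 6079, 6221 and 6194 with #4, so all hairpin libraries were lower. Without NTC replicate 3 the Pfn2 desert had 5 lower calls, and the Bnc2 desert had 3, 4 or 5 without NTC replicate 1, 2 or 3 and 5 without shMed1 #4 replicate 2. With any 1 of the NTC libraries left out, the Otol1 desert had 3 lower calls.

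Of the 161 desert peaks over lncRNA promoters, 57 were called higher (35.4%) and 25 lower (15.5%) in the mean, beside 23.9% and 13.3% of all desert peaks and 22.1% and 17.7% of all peaks. Their median level was 388, beside 163 for all desert peaks, and the difference in shares was not tested. The lncRNA genes below were chosen after their values were seen. At Mirt1, a lncRNA gene named for myocardial infarction, between Smndc1 and Dusp5, the promoter peak held 833, 764 and 643 in NTC, 1466, 1538 and 1681 with #2, and 763, 741 and 767 with #4. With #2 it rose by 1.07 ± 0.07, with #4 it was not called (0.03 ± 0.07, adjusted p = 0.806), and the hairpins differed by -1.04 ± 0.07. The Mirt1 peak belongs to a run of 5 neighbouring desert peaks that were all called higher in the mean. At Gm33741, between Rybp and Shq1, the peak held 1004, 960 and 892 in NTC, 1734, 1759 and 1820 with #2, and 1190, 1207 and 1128 with #4, and it rose with each hairpin, by 0.90 ± 0.06 and 0.31 ± 0.06.

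At Gm8883, between Fn1, the fibronectin gene, and Mreg, the peak held 1726, 1535 and 1589 in NTC, 2140, 2299 and 2408 with #2, and 2267, 2313 and 2250 with #4. It rose by 0.50 ± 0.05 with each hairpin, and all hairpin libraries lay above NTC. At Wincr1, a Wnt-induced lncRNA gene between Ifne and Mtap, the peak held 391, 430 and 382 in NTC, 344, 304 and 265 with #2, and 335, 280 and 217 with #4. It fell with each hairpin, by 0.40 (SE 0.11, adjusted p = 0.00309) and 0.55 (SE 0.11, adjusted p = 0.000143) on the log2 scale. At Gm26579, between Cnot2 and Myrfl, the peak held 133, 118 and 134 in NTC, 71.2, 47.2 and 61.6 with #2, and 97.3, 91.3 and 80.1 with #4. It fell by 1.1 with #2 (SE 0.18) and by 0.52 with #4 (SE 0.18), in 3 groups without overlap.

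MicroRNA genes lay near some desert peaks. Within 10 kb of a desert peak were 48 annotated hairpins, nearest to 31 different peaks, of which 4 were called higher (12.9%) and 9 lower (29%) in the mean, at a median level of 125. The shares were 23.9% and 13.3% of all desert peaks and 22.1% and 17.7% of all peaks. Several hairpins share 1 peak, and RNA was not measured. The mature strands below are shown because their genes lie beside the peaks described next (RefSeq, GRCm38.p6), 5′ to 3′, with the seed (bases 2 to 8), by which a microRNA recognises its targets, in capitals.
miR-206-3p: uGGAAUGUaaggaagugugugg
miR-133b-3p: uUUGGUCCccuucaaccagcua
miR-29a-3p: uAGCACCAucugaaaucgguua
miR-29b-3p: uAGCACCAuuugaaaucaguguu
miR-99a-5p: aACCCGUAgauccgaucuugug
let-7c-5p: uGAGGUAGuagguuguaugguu
miR-125b-5p: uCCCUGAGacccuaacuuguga
miR-29a and miR-29b share the seed AGCACCA, and the other 5 have seeds of their own. These genes were chosen after the values were seen.

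The hairpin of miR-206, a muscle microRNA, lies inside the desert peak at chr1:20678776-20679277 between Pkhd1 and Il17a, with the middle of the miR-133b hairpin 3802 bases from the peak's centre. The peak held 125, 122 and 138 in NTC, 94, 77.2 and 75.5 with #2, and 84, 105 and 100 with #4. All hairpin libraries were lower, and it fell by 0.53 in the mean (SE 0.14, adjusted p = 0.00249), while with #4 alone it was not called (-0.41 ± 0.16, limma, adjusted p = 0.0506). The peak nearest to miR-99a and let-7c-1 held 132, 166 and 144 in NTC, 87.9, 77.2 and 83.7 with #2, and 124, 106 and 152 with #4. It fell by 0.82 with #2 (SE 0.16), was not called with #4 (-0.21 ± 0.16, adjusted p = 0.317), and the hairpins differed (0.60 ± 0.16, adjusted p = 0.00344). The peak beside miR-125b-1, in the lncRNA gene Mir100hg, held 827, 822 and 831 in NTC, 679, 658 and 611 with #2, and 684, 776 and 756 with #4. It fell by 0.26 in the mean (SE 0.06, adjusted p = 0.000721), and the hairpin libraries all lay below NTC. With #4 alone it was not called (-0.16 ± 0.07, limma, adjusted p = 0.0747).

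The peak beside miR-29a and miR-29b-1, at chr6:31061985-31062486, held 1817, 1765 and 1784 in NTC, 1846, 2011 and 2257 with #2, and 2031, 1937 and 1923 with #4. The mean change of 0.16 ± 0.05 (adjusted p = 0.00608) was not called after equal totals, quantile or cyclic loess scaling (adjusted p = 0.154, 0.143 and 0.317). A peak nearest to several hairpins of the imprinted microRNA cluster between Rtl1 and Dio3 rose with each hairpin, by 0.23 ± 0.06 and 0.21 ± 0.06, from 1334 ± 51.5 to 1562 ± 25.8 and 1544 ± 112. Near Mir6390, between Ndfip2 and Spry2, a receptor tyrosine kinase inhibitor gene, a peak rose by 0.76 ± 0.08 with #2 and stood at 545 ± 32.2 with #4, beside 546 ± 24.8 in NTC. The peaks beside the oncogenic cluster of miR-17 (357 ± 20.1 in NTC, 323 ± 31.4 with #2, 336 ± 31.1 with #4) and beside miR-205, a microRNA of epithelial cells (115 ± 19.1, 102 ± 8.81 and 95.1 ± 14.4), were not called with either hairpin.

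Neighbouring desert peaks had more similar changes the closer they lay. Across pairs of neighbours less than 2 kb apart (n = 706), the log2 changes in the mean of both hairpins correlated with Pearson's r = 0.491. The r was 0.277 for neighbours 2002 to 12494 bases apart (n = 2379), 0.169 at 12538 to 49964 bases (n = 2194) and 0.0576 beyond 50 kb (n = 2797). Neighbours share the libraries, and these values describe the peaks without a test. Joining neighbours up to 12494 bases apart, with the next pair in order of distance at 12538, gave 5012 clusters, of which 669 held 3 or more peaks and the largest 26, in the Klf14 to Mkln1 desert. Of these 669, 330 had only higher calls, 122 only lower calls, 88 both and 129 none. All peaks were called higher in 28 clusters, among them 5 neighbours between Fst and Mocs2 and 3 clusters of 3 peaks beside Sox9. All were called lower in 3. The 11 peaks between Wnt7b and Ppara made 1 cluster, with 6 lower and no higher call, and a cluster of 19 peaks in the Irf8 desert had 9 higher and no lower call. Strong peaks were called higher in 56.8% in clusters of 3 or more and in 56.5% where they stood alone. Middle peaks were called higher in 25% and 17.4%, and weak peaks in 9.94% and 4.24%. Weak peaks were called lower in 10.9% in such clusters and in 17.7% alone.

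The 5 desert peaks farthest from any protein-coding gene, among those with a mean of at least 50, lay in a pair of deserts. The peak at chr14:82065226-82065727, between Olfm4 and Pcdh17 and 2042 kb from a gene end, held 901, 913 and 977 in NTC, 1061, 1049 and 992 with #2, and 1072, 1076 and 1105 with #4. Its mean change of 0.19 ± 0.05 (adjusted p = 0.00461) was not called after equal totals, quantile or cyclic loess scaling. The other 4 lay between Slc10a2 and Efnb2, an ephrin ligand gene, 1676 to 1709 kb from a gene end, with NTC means of 53.4 to 514 and mean changes of -0.15 to 0.44. None of these 4 was called in the mean of both hairpins. The peak at chr8:6807044-6807545 was called lower with #4 (-0.33, adjusted p = 0.0362). The peak at chr8:6789053-6789554 was called higher with #2 (0.59, adjusted p = 0.0394), and its mean change (0.44, adjusted p = 0.0833) was called without NTC replicate 1 or 2, without shMed1 #4 replicate 1 and after cyclic loess scaling.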

How the data were processed

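Open chromatin was measured by ATAC-seq in 9 libraries, 3 per group, grouped by their labels. Per the submitters' processing notes, reads were handled with Trim Galore, BWA, MACS2 and featureCounts on mm10, with no versions given. The authors deposited 1 table of signal, normalised counts for 75936 peaks of 501 bases. Raw depth is not given, so no counting interval was computed. Peaks were placed by the RefSeq genes of GRCm38.p6 (21631 protein-coding genes on the chromosomes used). The values were tested as log2(value + 1) with limma 3.58.1 in R 4.3.3 over all 9 libraries, on the 75930 peaks whose mean reached 10, with Benjamini-Hochberg adjustment and a threshold of 0.05. A fold change on this scale understates the change of low peaks. The fit was tested on simulated data. Peaks were named by rank rules, flanking gene lists and, where stated, after their values were seen. The members and lists were chosen with earlier results of these data known. Alternatives covered scaling, pseudocount, filter, samples, distance rule and a replicate block. Peak sequences were not analysed here, and a few items are not reported here.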

Additional observations from a re-analysis of the deposited data

Results flagged for a closer look

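At 10 desert peaks, 5 in each direction, the hairpins differed most by a direct test of #4 against #2 (limma, adjusted p from 5.85e-15 to 7.25e-06), with no overlap between their libraries. The peaks were ranked by that difference, so its size is no independent evidence.

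Higher with #4 were a peak between Gja1 and Hsf2 (difference 1.74 on the log2 scale, means 72.9 in NTC, 31.4 with #2 and 107 with #4), one between Rab38 and Tmem135 (1.59, with 73, 43.1 and 126), one between Bcl2l11 and Spdye4c (1.53, with 72.5, 31.5 and 92.2), one between Pabpc4l and Pcdh18 (1.53, with 321, 153 and 443) and one between Bet1 and Col1a2 (1.51, with 127, 65.9 and 190).

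Lower with #4 were a peak between Ets1 and Kirrel3 (-1.43, with 51, 88 and 32.3), one between Klf4 and Actl7b (-1.39, with 121, 246 and 94.2), the Ccnd2 peak of the report (-1.38), one between Phkb and Abcc12 (-1.37, with 63.3, 93.5 and 35.6) and one between Tnc and Pappa (-1.28, with 115, 283 and 116).

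The peaks beside Tmem135, Pcdh18, Col1a2, Ets1, Klf4 and Phkb were called in opposite directions by the hairpins against the shared NTC libraries. Whether the hairpins lowered Med1 to different degrees was not tested.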

How the results depend on the processing

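With equal library totals, 16.4% of desert peaks were called lower with #4, 21.4% lower in the mean of both hairpins, 7.88% higher with each hairpin and 8.12% lower with each. Lower calls in that mean covered 22.3% of gene-body, 26.7% of other intergenic and 49% of gene-end peaks. The hairpin libraries had larger summed totals than the NTC libraries, and this scaling sets all totals equal. Which scaling is closer to the cells was not tested.

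Leaving out each library in turn gave 23.8% to 28.5% higher and 10.4% to 15.3% lower with #2, 12.9% to 18.1% and 6.05% to 11.3% with #4, 19% to 24.3% and 8.13% to 14.7% in the mean, 5.77% to 8.09% and 16.2% to 19.3% for #4 against #2, and 9.05% to 12.6% and 2.17% to 4.82% with each hairpin. The lowest shares of lower calls came without NTC replicate 2 or 3, and the cause was not tested. The share of signal in desert peaks stayed at 7.29% to 7.37% in NTC, 7.87% to 7.9% with #2 and 7.46% to 7.57% with #4.

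Same-numbered libraries of different groups showed no shared deviation (correlations -0.0843 to 0.0335, beside -0.0364 to 0.0764 for differently numbered ones). With 3 libraries per group, these values cannot show whether same-numbered libraries were prepared together. A fit with a replicate block called 27.5% higher and 14.5% lower with #2, 16.6% and 9.73% with #4, 23.4% and 12.9% in the mean, 7.83% and 18.7% for #4 against #2, and 11.8% and 4.13% with each hairpin.

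Of the values of 80 named peaks under the alternatives, 1470 kept their call, 4 gained one, 11 lost one and 1 changed sign, the Morrbid promoter peak at -0.02 after quantile scaling. The planned count models were not run, since whole reads could not be recovered from the deposited values.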
